A study of Saccharomyces cerevisiae with 20 samples.

Results

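The rows examined are the genes, RNAs and reading frames of the yeast mitochondrial chromosome, taken as every row of the deposited count table whose identifier begins with Q0. There are 31 such rows among 7127. They fall into 8 genes whose exons encode proteins, 3 RNAs, 10 reading frames that lie in introns, and 10 other open reading frames. The study grew 5 wild-type laboratory strains of Saccharomyces cerevisiae in synthetic complete medium with glucose to early exponential phase and made 4 libraries from each, 20 in all, by Smart-seq2, which copies RNA from an oligo-dT primer and amplifies the cDNA. BY4741 (MATa) carries his3Delta1, leu2Delta0, met15Delta0 and ura3Delta0. CEN.PK2 (MATa) carries his3Delta1, leu2-3_112, ura3-52 and trp1-289 with MAL2-8c and SUC2. W303 (MATa) carries his3-11,15, a mutant leu2 allele, and with them ura3-1, can1-100 and trp1-1. RM11-1a (MATa) carries leu2Delta0, ura3Delta0 and HO::kanMX. D273-10B (MATAlpha) is labelled mal and has no auxotrophic marker in its label. Every strain stood untreated, and the labels say nothing of the mitochondrial genotype.

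Yeast mitochondrial DNA encodes a few subunits of the respiratory chain and of the ATP synthase, 1 ribosomal protein, the 2 mitochondrial ribosomal RNAs, a set of tRNAs and the RNA part of the enzyme that trims tRNA ends. Everything else in the organelle is made from nuclear genes. The genes COX1, COB and 21S_RRNA are split by introns, several of which hold reading frames for maturases that help their own intron splice, for reverse transcriptases, or for endonucleases that spread the intron to copies of the gene without it. Many of these introns are optional, so yeast strains differ in which of them their mitochondrial DNA carries. Mitochondrial mRNAs of yeast have no poly(A) tail, so a value here is what oligo-dT priming reached in each RNA and not its abundance in the cell.

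The intron frames carry most of the strain differences below, so the exon and intron bases around the starts of their introns are shown first. Capitals mark the exon that precedes the intron and lower case the intron. The sequences come from the RefSeq annotation of assembly R64, chromosome MT, plus strand, where COX1 spans 13818 to 26701, COB 36540 to 43647 and 21S_RRNA 58009 to 62447.
aI1 (positions 13967 to 14006, holds AI1): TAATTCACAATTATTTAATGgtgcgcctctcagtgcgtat
aI2 (positions 16451 to 16490, holds AI2): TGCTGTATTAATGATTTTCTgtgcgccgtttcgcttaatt
aI4 (positions 20965 to 21004, holds AI4): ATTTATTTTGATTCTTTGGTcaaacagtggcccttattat
aI5-beta (positions 23727 to 23766, holds AI5_BETA): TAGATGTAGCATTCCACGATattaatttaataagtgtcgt
bI3 (positions 39198 to 39237, holds BI3): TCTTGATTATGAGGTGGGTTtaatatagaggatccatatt
omega (positions 60705 to 60744, holds SCEI): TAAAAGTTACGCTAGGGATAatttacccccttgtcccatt
The introns aI1 and aI2 both begin with GTGCG, the start known from group II introns, and 3 of the 13 annotated introns of COX1, COB and 21S_RRNA do so on the annotated strand. In the reference the omega intron interrupts the last exons of 21S_RRNA, between position 60724 and position 61868. A 21S gene without it would read across the join as below, with the exon before the intron in capitals and the exon after it in lower case, and this join is where the enzyme made from SCEI is known to cut.
21S_RRNA exons joined: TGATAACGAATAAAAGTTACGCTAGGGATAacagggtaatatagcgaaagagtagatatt
The frames AI1 to AI4 and AI5_ALPHA are annotated from the first exon of COX1 onward and thus share exon bases with COX1. Of the AI1 frame, 93.3% of the bases belong to no other row, of AI2 92.0%, of AI4 56.9%, and of COX1 itself 39.4%. How reads in shared exons were assigned is not given in the sources used here, so counts of COX1 and of frames that share its exons are uncertain. SCEI, AI5_BETA, ATP6, OLI1 and both ribosomal RNAs share no base with another Q0 row.

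The libraries held 1311322 to 22979469 counts, of which the 31 rows took 22698 in all, or 0.0123%. Levels are given as counts in 1000000 of the library's total counts (CPM). LEU2, deleted in BY4741 and RM11-1a, was at 0 in all 8 libraries of those strains. HO, disrupted in RM11-1a, stood at 0.0926 to 0.327 CPM in RM11-1a replicates 1, 3 and 4 and at 60.9 CPM in replicate 2. REE1, a nuclear gene at 0 in those 3 libraries, stood at 81.2 CPM in replicate 2 and at 72.6 to 116 CPM in every library of BY4741, CEN.PK2 and W303. URA3, deleted in RM11-1a, stood at 16.7 and 11.2 CPM in replicates 1 and 2 and at 1.02 and 1.05 CPM in replicates 3 and 4, while BY4741, which also lacks it, had 0.337 to 3.16 CPM. The library labelled RM11-1a replicate 2 therefore goes against its HO label, and replicates 1 and 2 both stand apart for URA3. For AI1, AI4 and SCEI, the contrasts of RM11-1a with the other 4 strains are given with and without each of them.

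All 31 rows together reached 11.1 to 349 CPM, and each strain spanned a wide range. In BY4741 the summed level was 113, 89.7, 11.1 and 39.3 CPM in replicates 1 to 4. CEN.PK2 had 103.9, 70.9, 117 and 160.4 CPM, and D273-10B 129, 119, 349 and 107 CPM. RM11-1a had 43.9, 18.4, 112 and 116 CPM, and W303 199, 53.5, 55.5 and 49.4 CPM. The ranges of the 5 strains overlapped. The lowest 4 libraries, BY4741 replicates 3 and 4 and RM11-1a replicates 1 and 2, all have library numbers that begin with 66. The other 4 libraries with such numbers were W303 replicate 2 at 53.5 CPM, CEN.PK2 replicate 1 at 103.9 CPM, D273-10B replicate 1 at 129 CPM and W303 replicate 1 at 199 CPM. The part of the library number series in these levels was not tested. In bulk RNA, fewer cells with mitochondrial DNA and less RNA per cell cannot be told apart.

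**Figure D1:**
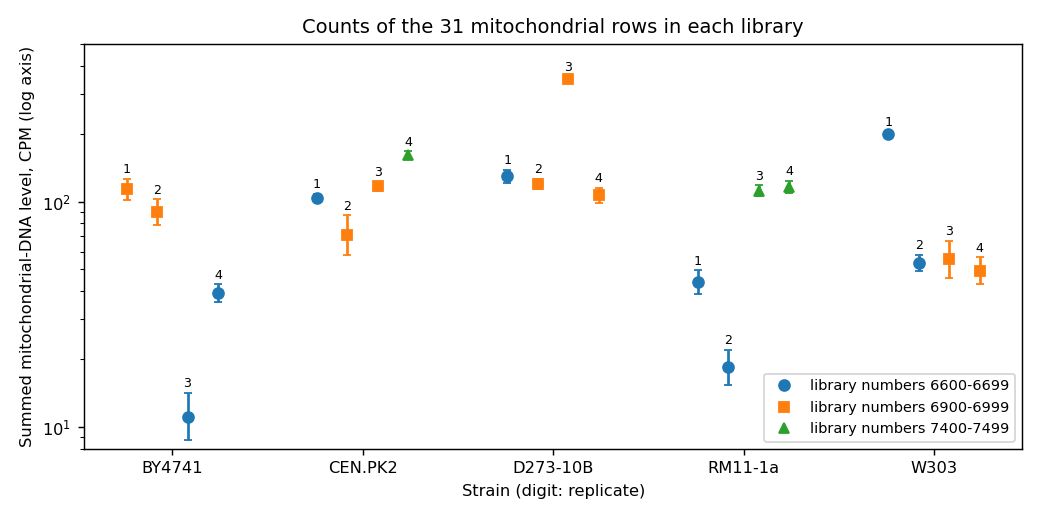
Summed level of the 31 mitochondrial rows in each of the 20 libraries, in CPM on a log axis, by strain; bars are 95% Wilson intervals, which cover counting error only, digits are replicate numbers, and colour and shape give the library number series. The libraries run from 11.1 CPM (BY4741 replicate 3) to 349 CPM (D273-10B replicate 3), and the ranges of the strains overlap.

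The large ribosomal RNA, 21S_RRNA (Q0158), took 68.7% of all Q0 counts and 27.3% to 84.4% of those in a library. Its level was 80.8, 65.8, 3.03 and 24.6 CPM in BY4741, 64.3, 43.5, 85.7 and 111 CPM in CEN.PK2, 77.6, 92.6, 266 and 83.2 CPM in D273-10B, 33.8, 12.7, 94.0 and 97.9 CPM in RM11-1a, and 114.6, 21.9, 23.1 and 32.3 CPM in W303. Every strain overlapped with every other, and the test across the 5 strains did not pass (edgeR adjusted p = 0.162). Among the rows shared by no other, per kilobase of exon, 21S_RRNA averaged 21.7 CPM over the 20 libraries, OLI1 14.7 and 15S_RRNA 1.02. The small ribosomal RNA, 15S_RRNA (Q0020), was thus far below the large one, although both are parts of the same ribosome. The longest run of A is 10 bases in 21S_RRNA and 6 bases in 15S_RRNA, and whether this bears on their levels was not tested. RPM1 (Q0285), the RNA of mitochondrial RNase P, had 1 count in all libraries.

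The fit across all genes kept 6119 rows with enough counts, 9 of them mitochondrial: the exon genes COX1, ATP6 and OLI1, both ribosomal RNAs, and the intron frames AI1, AI2, AI4 and SCEI. The other 22 members were too sparse to test and are described by counts. Of the 9, edgeR's quasi-likelihood test with Benjamini-Hochberg adjustment over all tested genes found a difference among the 5 strains for 4, against 28.4% of all tested genes. These were ATP6 (adjusted p = 0.000361), AI4 (0.00123), SCEI (0.00271) and AI1 (0.0059), that is 1 of 5 exon genes and RNAs and 3 of 4 intron frames. A row that enters the test through the strain where it is high is prone to differ, so these counts are a description. For OLI1, COX1, AI2 and 15S_RRNA the edgeR adjusted p was 0.199, 0.179, 0.261 and 0.282.

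**Figure D2:**
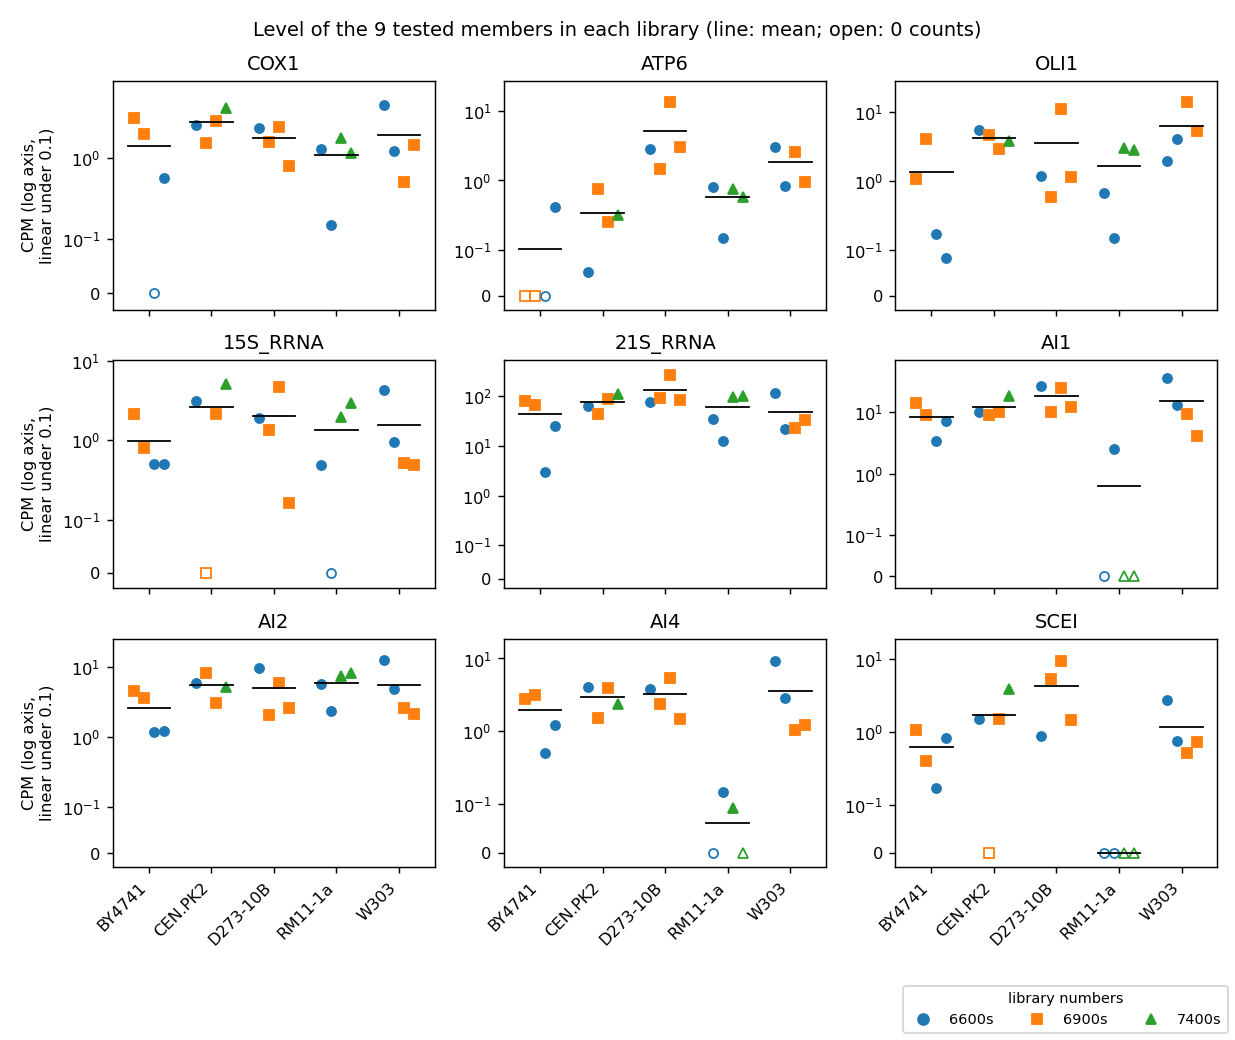
Level of the 9 tested mitochondrial members in each library, in CPM on an axis that is logarithmic above 0.1 and linear below it; black lines are strain means, open symbols are libraries with 0 counts, and colour and shape give the library number series. AI1, AI4 and SCEI sit at or near 0 in RM11-1a while AI2 does not, and ATP6 is at 1.49 CPM or more in all 4 D273-10B libraries.

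Among the exon genes, ATP6 differed most. ATP6 (Q0085) encodes the subunit of the ATP synthase that forms the proton channel with the ring made from OLI1. Its level was 2.81, 1.49, 13.7 and 3.09 CPM in D273-10B, 3.09, 0.845, 2.57 and 0.963 CPM in W303, 0.817, 0.149, 0.741 and 0.584 CPM in RM11-1a, 0.0507, 0.763, 0.249 and 0.314 CPM in CEN.PK2, and 0 in 3 libraries and 0.413 CPM in the fourth of BY4741. All 4 D273-10B libraries lay above every library of BY4741, CEN.PK2 and RM11-1a, and they overlapped with W303. D273-10B averaged 5.27 ± 5.66 CPM (SD, n = 4) against 0.722 ± 0.893 CPM (SD, n = 16) in the other libraries. Against the mean over the other 4 strains, the fitted difference of D273-10B was 3.74 on the log2 scale (SE 0.517, edgeR adjusted p = 4.67e-05). In other strains only the W303 libraries at 3.09 and 2.57 CPM reached the lowest D273-10B level. The count filter thus kept ATP6 through D273-10B, and its p-values for that strain, here and below, are a description. Without D273-10B replicate 3, whose level was the highest of all, the difference was 2.44 (edgeR adjusted p = 0.00351). Relative to the summed Q0 counts of each library, which were themselves high in that replicate, it was 2.02 and did not pass (edgeR adjusted p = 0.0656).

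Between pairs of strains, ATP6 was higher in D273-10B than in BY4741 by 5.08 on the log2 scale (edgeR adjusted p = 0.00183, with 14.5% of all genes called in that pair) and than in CEN.PK2 by 4.48 (0.00302, 5.61%). Against D273-10B, RM11-1a fell by 3.53 (0.00418, 18.4%). The RM11-1a call was lost with a library series block (-3.57, edgeR adjusted p = 0.0572) and relative to the summed Q0 counts (-1.50, edgeR adjusted p = 0.179), and the CEN.PK2 call was lost in the latter (3.65, edgeR adjusted p = 0.0783). W303 differed from D273-10B by -1.89, which did not pass (edgeR adjusted p = 0.0856). Within the libraries whose numbers begin with 69, 3 of D273-10B and 2 of BY4741, the fitted difference was 8.55 (edgeR adjusted p = 0.0261, with 19.9% of genes called), with both BY4741 libraries at 0 counts, so that its size is no bound. In the same series ATP6 of D273-10B differed from CEN.PK2 by 4.49 and W303 differed from D273-10B by -2.43, and neither passed (edgeR adjusted p = 0.0618 and 0.112). ATP8 (Q0080), whose mRNA is made together with ATP6, had 17 counts in all, 15 of them in D273-10B replicate 3.

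OLI1 (Q0130), the proteolipid whose ring turns in the ATP synthase, was the highest exon gene per kilobase. Its level was 1.05, 3.99, 0.168 and 0.0827 CPM in BY4741, 5.43, 4.58, 2.93 and 3.77 CPM in CEN.PK2, 1.18, 0.578, 11.1 and 1.14 CPM in D273-10B, 0.653, 0.149, 2.96 and 2.80 CPM in RM11-1a, and 1.91, 4.04, 13.9 and 5.30 CPM in W303. Single libraries of D273-10B and W303 were the highest, and the strains overlapped.

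COX1 (Q0045), the catalytic subunit of cytochrome c oxidase, averaged 1.43 ± 1.42 CPM in BY4741, 2.80 ± 1.11 in CEN.PK2, 1.79 ± 0.761 in D273-10B, 1.10 ± 0.680 in RM11-1a and 1.92 ± 1.76 in W303 (SD, n = 4 each). The ranges of all 5 strains overlapped, and the difference between RM11-1a and CEN.PK2 was -1.80 on the log2 scale and did not pass (edgeR adjusted p = 0.139). Of the other exon genes, COX2 (Q0250) had 69 counts, COX3 (Q0275) 33, VAR1 (Q0140), the mitochondrial protein of the small ribosomal subunit, 28, and COB (Q0105), the cytochrome b gene, 26 over the 20 libraries. COX2 reached more than 3 counts in 3 of 4 RM11-1a libraries and in 5 of the other 16, which also depends on library depth. COX2, COX3, VAR1 and COB were too sparse to test, so no strain difference is stated for them.

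The strain differences of the intron frames centred on RM11-1a. AI1 (Q0050) and AI2 (Q0055) encode the maturases and reverse transcriptases of the first introns of COX1, and AI4 (Q0065) encodes an endonuclease of the fourth. In RM11-1a, AI1, AI4 and SCEI were lower than in the other strains, 3 of the 9 tested members, against 4.51% of all tested genes lower in that contrast. AI2 did not pass in either direction.

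AI1 was at 0, 2.54, 0 and 0 CPM in RM11-1a replicates 1 to 4. It was at 14.0, 9.17, 3.37 and 7.19 CPM in BY4741, 10.0, 9.15, 10.02 and 18.6 CPM in CEN.PK2, 27.0, 9.91, 24.8 and 12.0 CPM in D273-10B, and 35.5, 13.2, 9.25 and 4.09 CPM in W303. All 4 RM11-1a libraries lay below all 16 others, as did those for AI4. Among the 6119 tested genes, 0.147% lay entirely below in RM11-1a. The fitted difference was -4.59 (SE 0.886, edgeR adjusted p = 0.00173). All 17 RM11-1a counts of AI1 came from replicate 2, the library that goes against its HO label. Without that library RM11-1a had 0 counts of AI1 in 25476293. The other strains averaged 13.6 ± 8.74 CPM (SD, n = 16), so with 3 counts allowed per library the level of RM11-1a was lower by 36.5-fold or more. The contrast passed without replicate 2 (edgeR adjusted p = 1.38e-05) and without replicate 1 (-4.21, edgeR adjusted p = 0.00744). Relative to the summed Q0 counts, with all libraries, it did not (-2.34, edgeR adjusted p = 0.169).

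AI2, the frame of the next intron, lay within the range of the other strains in all 4 RM11-1a libraries. Its level in RM11-1a was 5.72, 2.39, 7.50 and 8.18 CPM, against 1.18 to 12.8 CPM in the other 16 libraries, and the fitted difference was 0.32 (SE 0.418, edgeR adjusted p = 0.67). Within each library, AI1 took 52.2% to 85.3% of the counts of AI1 and AI2 together in the 16 libraries of the other strains. In RM11-1a replicates 1, 3 and 4 it took 0 of 35, 0 of 81 and 0 of 70 counts, with 95% Wilson upper limits of 9.89%, 4.53% and 5.20%. In replicate 2 it took 51.5% (35.2% to 67.5%) of 33 counts. Replicate 2 thus lay just below the lowest library of the other strains and far above the other 3 of its own.

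AI4 was at 0, 0.149, 0.0926 and 0 CPM in RM11-1a, 2 counts in all. In the other strains it was at 2.81, 3.19, 0.505 and 1.24 CPM in BY4741, 4.11, 1.53, 3.92 and 2.39 CPM in CEN.PK2, 3.84, 2.40, 5.46 and 1.46 CPM in D273-10B, and 9.31, 2.91, 1.03 and 1.20 CPM in W303. Pooled over libraries, the other strains stood 62.9 times higher, with an exact counting interval from 17.3 to 521. The fitted difference was -5.40 (SE 0.870, edgeR adjusted p = 0.00036), and -5.94 without replicate 2 (edgeR adjusted p = 0.000434, with 5.40% of genes lower in that fit). Without replicate 1 it was -5.13 (edgeR adjusted p = 0.00171). Within the libraries whose numbers begin with 66, AI4 was higher in W303 than in RM11-1a by 6.04 on the log2 scale (edgeR adjusted p = 0.0477, 2 libraries each), where 2.74% of genes were called. The RM11-1a libraries there are replicates 1 and 2, which both stand apart for URA3, and replicate 2 goes against its HO label. The other differences of RM11-1a in that series did not pass. AI4 differed from BY4741 by -3.40 and AI1 by -2.01 (edgeR adjusted p = 0.561 and 0.581), where 0 of 6026 genes were called. AI1 of W303 stood 4.12 above RM11-1a (edgeR adjusted p = 0.0664).

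SCEI (Q0160) is the reading frame of the omega intron, and its product is the endonuclease that carries the intron into 21S genes without it. It had 0 counts in all 4 RM11-1a libraries, in a summed total of 32174720, although 21S_RRNA itself had 2145 counts there. In the other strains SCEI was at 1.05, 0.399, 0.168 and 0.827 CPM in BY4741, 1.52, 0, 1.49 and 3.90 CPM in CEN.PK2, 0.887, 5.45, 9.62 and 1.46 CPM in D273-10B, and 2.74, 0.751, 0.514 and 0.722 CPM in W303. CEN.PK2 replicate 2, the library with the fewest counts, was at 0 as well. With 3 counts allowed per library, RM11-1a stood at least 5.03-fold lower than the 16 libraries of the other strains, which averaged 1.97 ± 2.50 CPM (SD, n = 16). The edgeR adjusted p for the contrast was 0.00513, 0.0077 without replicate 2 and 0.0123 without replicate 1. Per 100 counts of 21S_RRNA, SCEI gave 0 to 5.89 in the other 16 libraries.

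Against single strains, AI4 and AI1 of RM11-1a were lower than in each of the other 4. For AI4 the fitted difference was -4.49 against BY4741 and -5.71 against CEN.PK2 (edgeR adjusted p = 0.0139 and 0.000625), where 5.47% and 6.93% of genes were called. Against D273-10B it was -5.70, and W303 stood 5.70 above RM11-1a (edgeR adjusted p = 0.00039 and 0.000695), where 18.4% and 10.9% of genes were called. For AI1 the differences were -3.77 from BY4741, -4.74 from CEN.PK2 and -5.17 from D273-10B, and W303 stood 4.71 above RM11-1a (edgeR adjusted p = 0.0256, 0.00319, 0.00126 and 0.00401). Without replicate 2, all 4 pairs passed for both frames. AI4 then gave -5.03, -6.25 and -6.24 against BY4741, CEN.PK2 and D273-10B, and W303 stood 6.24 higher (edgeR adjusted p = 0.00781, 0.000529, 0.000492 and 0.00054), where 10.1%, 8.59%, 17.4% and 12.9% of genes were called. For AI1 the fitted values became -9.12, -10.08 and -10.52, with W303 10.06 higher (edgeR adjusted p = 0.000106, 2.38e-05, 1.31e-05 and 2.42e-05), but RM11-1a then has 0 counts and these sizes are no bounds. Relative to the summed Q0 counts, with all libraries, none of the 4 AI1 pairs passed (edgeR adjusted p = 0.95, 0.236, 0.087 and 0.424), and AI4 did not against BY4741 (edgeR adjusted p = 0.104). The differences from BY4741 were also lost with a library series block, AI1 at -4.03 and AI4 at -4.43 (edgeR adjusted p = 0.0738 and 0.082). That of AI1 did not pass without BY4741 replicate 1 or 2, or without RM11-1a replicate 1, 3 or 4 (edgeR adjusted p = 0.0552 to 0.104), and that of AI4 without RM11-1a replicate 3 or 4 (edgeR adjusted p = 0.0555 and 0.0572). SCEI passed against CEN.PK2, D273-10B and W303 (edgeR adjusted p = 0.00512, 0.000965 and 0.0184) and did not against BY4741 (edgeR adjusted p = 0.118), which had 15 counts of it. The W303 call was lost without W303 replicate 1 or RM11-1a replicate 3 or 4 (edgeR adjusted p = 0.0774, 0.0644 and 0.052).

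**Figure D3:**
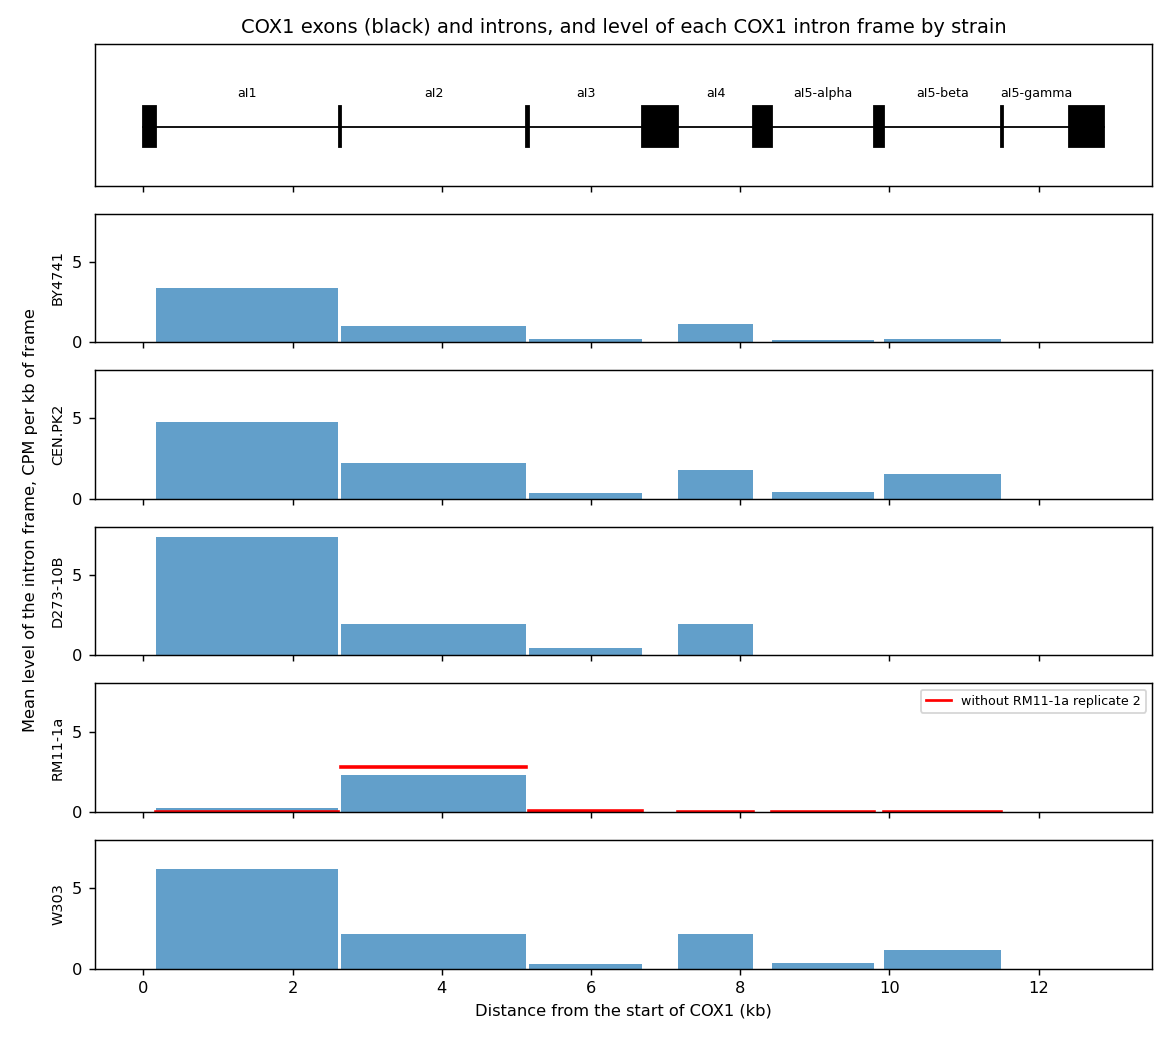
Top, exons (black) and introns of COX1 to scale, as distance from the start of the gene in kb; below, the mean level of each COX1 intron frame in CPM per kb of frame for each strain, drawn over the intron that holds it, and in red for RM11-1a without replicate 2. AI2 stands in all 5 strains, AI1 and AI4 fall to or near 0 in RM11-1a, and AI5_BETA is at 0 in D273-10B and RM11-1a.

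The sparse intron frames also differed in where counts were seen. AI3 (Q0060), the frame of the third COX1 intron, had 95 counts, of which 6 were in BY4741, 28 in CEN.PK2, 25 in D273-10B, 2 in RM11-1a and 34 in W303. Its share of the intron-frame counts was 0.840% in RM11-1a (95% Wilson interval 0.231% to 3.01%) and 1.79% to 2.09% in the other strains. AI2 made up 84.9% of the RM11-1a intron-frame counts and 14.5% to 18.9% of those elsewhere, so these shares do not compare levels. For AI3 the other 16 libraries averaged 0.421 ± 0.454 CPM (SD, n = 16). With 3 counts allowed per library, RM11-1a stood at least 1.07-fold lower, and AI3 was not tested. AI5_BETA (Q0075), in a late intron of COX1, had 106 counts in CEN.PK2, 101 in W303 and 7 in BY4741, and 0 in all 8 libraries of D273-10B and RM11-1a. AI5_ALPHA (Q0070) had 53, 34 and 5 counts in the first 3 of these strains and 1 count each in D273-10B and RM11-1a, where the 1 count of RM11-1a came from replicate 2. BI2 (Q0110) and BI3 (Q0115), maturases of COB introns, had 10 and 21 counts in CEN.PK2 and 0 in every D273-10B library. BI4 (Q0120), the maturase of a later COB intron, had 16 counts in D273-10B. A short form of COB without its first introns is known from D273-10B.

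Shares within the intron frames, pooled over the libraries of a strain, set limits on these zeros. Of the W303 counts, replicate 1 gave 1584 of 1904 in all and 89 of 101 of AI5_BETA, and replicates 3 and 4 held 0 of AI5_BETA. In D273-10B, 0 of 1199 intron-frame counts were of AI5_BETA, which allows a share of up to 0.250%, against 7.19% (95% Wilson interval 5.98% to 8.62%) in CEN.PK2 and 5.30% (4.38% to 6.40%) in W303. The same limit holds for BI2 and BI3, whose shares in CEN.PK2 were 0.678% (0.369% to 1.24%) and 1.42% (0.933% to 2.17%). In W303 BI3 took 0.893% (0.558% to 1.43%) and BI2 0.420% (0.213% to 0.827%), and the BI2 interval includes the limit of D273-10B, so that difference was not detectable. In RM11-1a without replicate 2, 203 counts allow up to 1.48% for AI5_BETA and for AI1. For AI5_BETA this limit lies within the interval of BY4741, 2.30% (1.12% to 4.68%). AI2 made up 91.6% of those 203 counts and 14.5% of the BY4741 counts, so these 2 shares do not compare levels. In CPM, with 3 counts allowed per library, RM11-1a without replicate 2 stood at least 2.11-fold below the other 16 libraries for AI5_BETA. Those averaged 0.787 ± 1.17 CPM (SD, n = 16), and the difference was not tested. BI2 and BI3 kept 1 and 5 counts in RM11-1a. Such intervals cover counting error only and leave out the spread between libraries. Amplified reads without molecular identifiers are also not independent molecules.

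**Figure D4:**
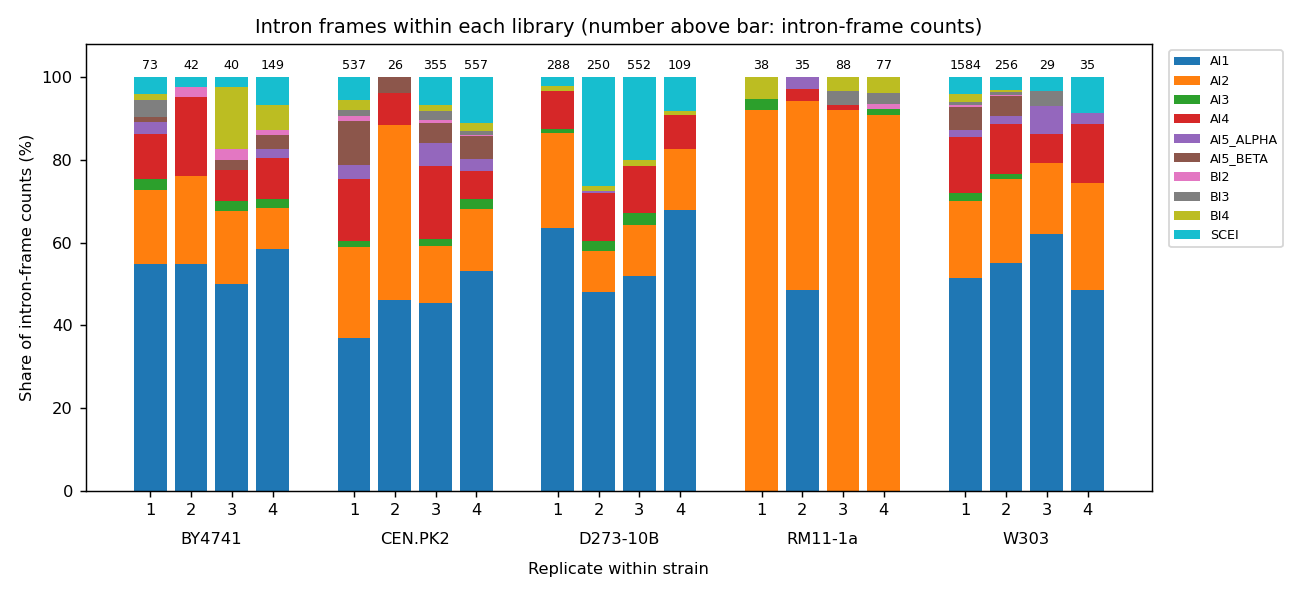
Share of each intron frame among the intron-frame counts of each library, in percent; the number above a bar is the library's intron-frame counts. AI1 is the largest share in all 16 libraries of the other 4 strains and in RM11-1a replicate 2, while AI2 takes 90.9% to 92.1% in RM11-1a replicates 1, 3 and 4.

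In D273-10B, 4 of the 9 tested members were higher than the mean of the other 4 strains, against 13.5% of all tested genes: ATP6, SCEI, AI1 and AI4. The mean of the other 4 strains includes RM11-1a, where AI1, AI4 and SCEI are at or near 0, and that lowers the mean. With RM11-1a left out of the mean, 2 of the 4 calls held, beside 15.6% of genes called. SCEI stood 2.10 higher on the log2 scale (SE 0.596, edgeR adjusted p = 0.0231) and ATP6 3.82 higher (SE 0.572, edgeR adjusted p = 0.000143). AI1 and AI4 gave 0.77 and 0.40 (edgeR adjusted p = 0.423 and 0.629). Without D273-10B replicate 3 and with RM11-1a in the mean, AI1 and AI4 did not pass either (edgeR adjusted p = 0.125 and 0.179). Without RM11-1a replicate 2, AI1 stood 3.20 higher in D273-10B (edgeR adjusted p = 0.000398, with 13.9% of genes higher), against 1.87 with it. RM11-1a then held no AI1 count and was part of the mean, so the size of 3.20 is no bound.

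SCEI was highest in D273-10B replicates 2 and 3 and within the range of CEN.PK2 and W303 in the other replicates. Against the 4 other strains it was 3.72 higher on the log2 scale (SE 0.663, edgeR adjusted p = 0.000857). The pair with BY4741 gave 3.21 (edgeR adjusted p = 0.0284), and that call was lost without any 1 BY4741 library and without D273-10B replicate 2 or 3. The pairs with CEN.PK2 and W303 did not pass (1.04 above CEN.PK2 and a W303 difference of -2.04, edgeR adjusted p = 0.491 and 0.105, where 10.6% of genes were called in the pair with W303). Among libraries whose numbers begin with 69, SCEI was higher in D273-10B than in BY4741 (3.38, edgeR adjusted p = 0.041, with 19.9% of genes called). W303 fell by 3.47 against D273-10B (edgeR adjusted p = 0.0357, with 23.0% of genes called). The BY4741 libraries there held 3 and 1 counts of SCEI and those of W303 1 and 3, so these sizes are no bounds. The pair with CEN.PK2 in that series gave 2.43 and did not pass (edgeR adjusted p = 0.104). In that series AI1 and 21S_RRNA of W303 also fell against D273-10B, with differences of -1.76 and -2.84 (edgeR adjusted p = 0.0421 and 0.0163). With all libraries the same differences were -0.46 and -1.79 and did not pass (edgeR adjusted p = 0.701 and 0.147).

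**Figure D5:**
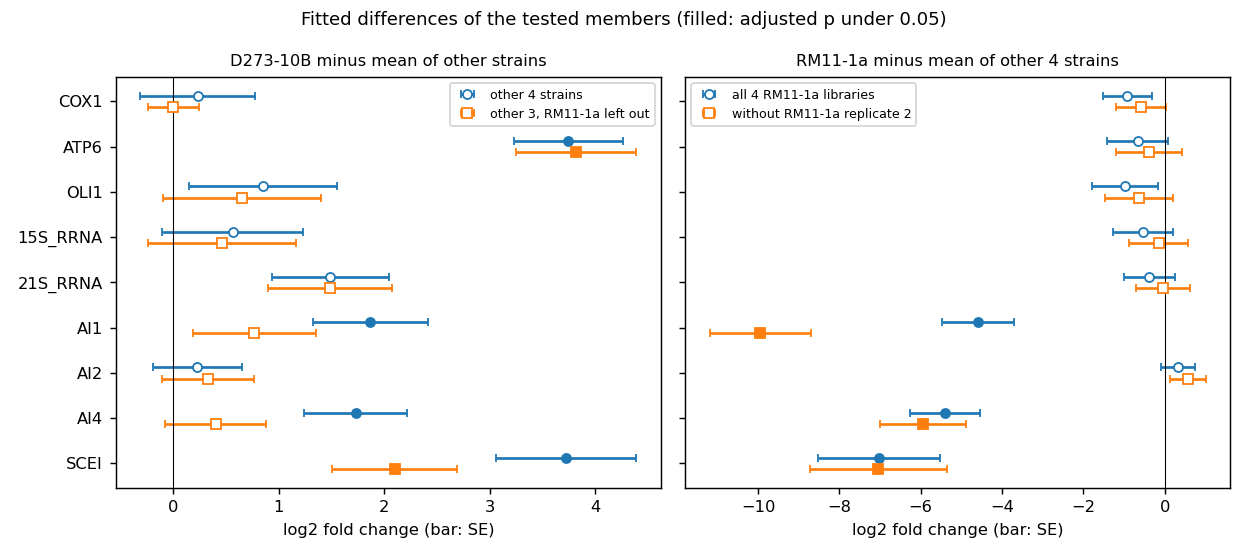
Fitted log2 fold change of the 9 tested members, with SE, for D273-10B (left; blue against the other 4 strains, orange with RM11-1a left out of the mean) and RM11-1a (right; blue with all 4 libraries, orange without replicate 2); filled symbols passed an edgeR adjusted p of 0.05. ATP6 keeps its size at left while AI1 and AI4 do not, and AI1, AI4 and SCEI lie far to the left in RM11-1a; fitted values of members at 0 counts are no bounds.

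CEN.PK2 and W303 each had 1 called member, AI4, higher by 1.74 and 1.73 on the log2 scale (edgeR adjusted p = 0.0425 and 0.0472), where 3.50% and 2.66% of genes were called higher. With RM11-1a left out of the mean the differences were 0.42 and 0.40 (edgeR adjusted p = 0.649 and 0.63), beside 4.12% and 3.06% of genes called. Most fits without 1 library ended these calls, and without W303 replicate 1 the W303 difference was 0.62 (edgeR adjusted p = 0.466). Without RM11-1a replicate 2, AI1 passed as well in both strains, where 4.91% and 4.54% of genes were called higher. AI1 then stood 2.66 higher in CEN.PK2 and 2.63 higher in W303 (edgeR adjusted p = 0.00462 and 0.00586), but RM11-1a held no AI1 count and these sizes are no bounds. In BY4741 no member passed with edgeR, against 4.84% of genes, while 2 members, AI2 and ATP6, had an unadjusted p under 0.05, and DESeq2 called 1. The share of all genes that met either of these 2 limits is not given here, so these counts are a description.

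Nuclear genes make the proteins that transcribe, splice, stabilise and translate these RNAs, and 35 of them were examined as a list. Across the 5 strains 9 of 35 differed, 25.7% beside 28.4% of all genes. Set against the 4 other strains, D273-10B had 8 higher and 1 lower, 25.7% beside 18.1% of all genes. The list's median difference there was 0.32 on the log2 scale, and that of all genes 0.11. Without D273-10B replicate 2, 6 of the 8 higher calls were lost and 2 were left, and without D273-10B replicate 3, 5 were left. With the gene length offset, or with RM11-1a left out of the mean, 5 were left as well. In BY4741 CBP6, COX24 and SOV1 were lower, beside 2.58% of all genes, the latter pair named after their values were seen. All 3 calls were lost without BY4741 replicate 1, 2 or 4, and 9 further fits without 1 library, as well as the library series block, left 1. In RM11-1a 1 of 35 was lower, 2.86% beside 4.51% of all genes. In CEN.PK2 and in W303 0 passed with edgeR, where 3.50% and 2.66% of all genes were called higher. There 0 and 7 had an unadjusted p under 0.05, and the share of all genes under that limit is not given here.

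Among the genes of the list that passed the 5-strain test, the largest differences were those of PET309, SUV3 and CBP6. SUV3, the helicase of the mitochondrial RNA-degrading complex, was at 48.9, 47.3, 30.9 and 9.93 CPM in D273-10B. RM11-1a had 8.56 ± 2.23 CPM and BY4741 10.8 ± 4.62 CPM (SD, n = 4 each). CEN.PK2 ranged from 7.23 to 28.2 CPM and W303 from 17.1 to 25.2 CPM. The D273-10B levels of 30.9 CPM and more lay above every library of the other strains. The D273-10B library at 9.93 CPM lay below every W303 library and within the ranges of BY4741, CEN.PK2 and RM11-1a. SUV3 was 1.56 higher in D273-10B (SE 0.263, edgeR adjusted p = 0.000372) and lower in RM11-1a by a fitted -1.16 (SE 0.317, edgeR adjusted p = 0.0216). The RM11-1a call was lost without RM11-1a replicate 3 or 4 (edgeR adjusted p = 0.123 and 0.108) and with a library series block (-0.86, edgeR adjusted p = 0.187). CBP6, needed for translation of the COB mRNA, was at 35.3 ± 3.73 CPM in BY4741 and 62.2 ± 6.43 CPM in W303, and BY4741 differed from the other 4 strains by -1.34 (SE 0.295, edgeR adjusted p = 0.0129). That call was lost without BY4741 replicate 1, 2 or 4 (edgeR adjusted p = 0.068, 0.0538 and 0.0564).

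PET309, needed to keep and translate the COX1 mRNA, was at 11.8, 114.8, 12.2 and 5.53 CPM in D273-10B and 4.40 to 16.9 CPM elsewhere. Its fitted difference of 2.10 (SE 0.448, edgeR adjusted p = 0.00244) rests on D273-10B replicate 2, without which it was 0.18 (edgeR adjusted p = 0.757). The lower gene in D273-10B was RPO41, the mitochondrial RNA polymerase, named after its value was seen, with 4.01 ± 1.68 CPM against 8.00 to 10.9 CPM in the means of the other strains. Its fitted difference was -1.10 (SE 0.244, edgeR adjusted p = 0.0034).

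Of the 10 other frames, Q0255 had 25 counts over the 20 libraries. The remaining 9 have no entry in the annotation used and had 14 counts in all, and 3 rows were at 0 in every library. None of them was tested. The replicates are separate samples by their labels, which do not say whether they came from separate cultures, so the p-values measure the spread between these samples.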

How the data were processed

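Per the labels, RNA of 5 strains with 4 libraries each was made into Smart-seq2 libraries and sequenced as 75-base single-end reads. The authors deposited 1 table of counts per gene. The submitters' processing notes name STAR and Salmon without role or version. The genome build, the strand setting and the treatment of ambiguous reads are not given in the sources used here, and the kit does not mark strand. Column names were matched to samples by library number. Members and lists were chosen with earlier results of these data known. Every exon gene, RNA and intron frame is named; of the 35 nuclear genes, the 3 with the largest differences among those past the 5-strain test, and others only where the text says that their values were seen first.

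Counts were fitted with edgeR 4.0.16 (quasi-likelihood, filterByExpr, TMM, 1 term per strain, 15 residual degrees of freedom) in R 4.3.3. P-values were adjusted by Benjamini-Hochberg over all 6119 genes kept, at a threshold of 0.05. DESeq2 1.42.0, other filters and scalings, blocks, a gene length offset and 20 fits without 1 library each were alternatives. A contrast without RM11-1a and fits within library number series were added after seeing the data. The fit was tested on simulated counts. Intervals are 95% Wilson intervals unless called exact, and a count of 0 was read as up to 3 counts. No 2 libraries of a strain agreed within sampling noise (chi-square per degree of freedom 13.4 to 870 over 30 pairs). Lengths and sequences are from RefSeq R64, which may differ from the build the authors used.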

Additional observations from a re-analysis of the deposited data

Results flagged for a closer look

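In 18 of 87 groups of 4 libraries, 1 library stood apart from the other 3 by more than Dixon's 95% limit. Independent groups of normal values pass that limit in about 5% of cases. Many of these levels rest on few counts, and the groups overlap, since 21S_RRNA is part of the summed level. The 18 are therefore a description and no measure of excess. Of the 18, 7 are in D273-10B and 6 in W303. D273-10B replicate 3 was the highest of its strain for the summed Q0 level (349 CPM, others 107 to 129), 21S_RRNA (266 CPM), ATP6 (13.7 CPM), OLI1 (11.1 CPM), ATP8 (1.30 CPM) and COX2 (0.433 CPM). D273-10B replicate 1 had the lowest share of 21S_RRNA, 60.1% of Q0 counts, against 76.2% to 77.9% in the others.

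W303 replicate 1 was the highest of its strain for the summed level (199 CPM, others 49.4 to 55.5), 21S_RRNA (114.6 CPM), 15S_RRNA (4.22 CPM), SCEI (2.74 CPM), BI4 (1.35 CPM) and COX3 (0.174 CPM). This library also had the most counts of all 20.

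RM11-1a replicate 2 stood alone with AI1 at 2.54 CPM and an AI1 share of 51.5% of AI1 and AI2, both 0 in the other 3 libraries. Single libraries also stood apart for COX3 in RM11-1a replicate 3 (0.371 CPM), ATP6 in BY4741 replicate 4 (0.413 CPM) and AI1 in CEN.PK2 replicate 4 (18.6 CPM). Outside the Q0 rows, the 24 rows of mitochondrial tRNAs held 90 counts in all, and 7 libraries had more than 3 of them.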

How the results depend on the processing

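Against the other 4 strains together, the RM11-1a calls of AI4 and SCEI held in every alternative that tested them, and that of AI1 in all but counts relative to the summed Q0 counts (-2.34, edgeR adjusted p = 0.169). The D273-10B call of SCEI held in all, and that of ATP6 in all but the same setting. With only genes of at least 10 CPM on average, 1 member was called in the 5-strain test, 1 in D273-10B, 1 in RM11-1a and 0 in CEN.PK2 and W303, since 2 members remained tested. DESeq2's test called 1 member in BY4741 and 2 in CEN.PK2. Without a filter, 3 were called in CEN.PK2 and 2 in W303. Relative to the summed Q0 counts, D273-10B had 1 and CEN.PK2 0, and OLI1 passed the 5-strain test (edgeR adjusted p = 0.0275). That fit scaled all 6119 genes by these counts, with spread and adjustment taken over all of them, and was read for the members only. A library series block left 0 in CEN.PK2 and 0 in W303, and W303 also had 0 with DESeq2 size factors and with the gene length offset. With RM11-1a left out of the mean, D273-10B had 2 called members, and W303 and CEN.PK2 had 0. Leaving out 1 library at a time gave 4 to 5 called members in the 5-strain test. For W303 and for CEN.PK2 the range was 0 to 3 each, for D273-10B it was 2 to 5, RM11-1a kept a count of 3 and BY4741 a count of 0 throughout. Over all genes, the 5-strain test called 1736 of 6119 in the main fit. It called 2522 of 6119 with DESeq2's test and 1862 of 6911 without a filter. Genes of at least 10 CPM gave 1257 of 4647, and the series block 1189 of 6119. Fits without 1 library gave 1279 of 6127 to 3090 of 6200. For most of these settings the share of all genes in a single strain is not given here, so the member counts are a description. The cause of these shifts was not tested.

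The replicate block gave 4 called members in the 5-strain test, and beside W303 moved no strain's count; in W303 it gave 0, since AI4 was lost. The replicate numbers did not pair the samples: deviations of 40 same-numbered pairs correlated from -0.356 to 0.382, and 4 of 20 libraries correlated best with their own number. At 1311322 counts, the fewest in a library, 3 counts are 2.29 CPM, above the mean level of most exon genes, so low members cannot be compared in such libraries.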
